A study of Mus musculus with 40 samples.

Results

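The 10 genes described here encode the chains of the high-affinity IgE receptor, the low-affinity IgG receptors that stand beside it on mast cells, and the proteins that act right after receptor binding. They were taken by gene symbol: Fcer1a, Ms4a2, Fcer1g, Fcgr2b, Fcgr3, Lyn, Syk, Lat, Btk and Lcp2. All 10 were found among the 23304 distinct symbols of the table, each in 1 row. Levels are given in FPKM, fragments counted per length of transcript and per mapped fragments of the library, as the authors deposited them.

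On mast cells and basophils the IgE receptor is a complex of an alpha chain that holds IgE (Fcer1a), a beta chain that amplifies the signal (Ms4a2) and a dimer of gamma chains (Fcer1g). When antigen crosslinks bound IgE, the kinase Lyn phosphorylates the beta and gamma chains, Syk docks on the gamma chains, and Syk phosphorylates the adaptors Lat and SLP-76 (Lcp2). These adaptors gather phospholipase C gamma and the kinase Btk, calcium enters the cell, and granules are released. The gamma chain also serves the activating IgG receptor Fcgr3, whereas the IgG receptor Fcgr2b has no gamma chain and recruits the phosphatase SHIP (Inpp5d), which dampens the same signal.

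RNA was sequenced from 40 mouse libraries in 10 groups of 4. Ear skin and sorted mast cells came from MrgprdDTR mice and from MrgprdCre mice. The former are a cross of the C57BL/6 line Gt(ROSA)26Sortm1(HBEGF)Awai, which carries a Cre-dependent diphtheria toxin receptor, with the Cre line Mrgprdtm1.1(cre)And on a B6.129S1 background, and the latter carry the Cre allele alone. Cre is driven by the Mrgprd locus, which is active in a class of sensory neurons of the skin, so toxin removes cells with a history of Cre activity. All of these mice have the Cre allele, and all are described with the acetone and olive oil (4:1) vehicle. The study's design text gives toxin to both genotypes, over 3 to 4 weeks per the protocol, whereas the treatment label of the MrgprdCre samples names the vehicle alone. Ear skin of C57BL/6J mice received 50 mM β-alanine, an agonist of the MrgprD receptor, or PBS, once a day for 2 days. Mast cells grown from the peritoneum of C57BL/6J mice were kept 6 h in glutamate-free Tyrode's buffer with or without 4 mM glutamate, or 48 h with vehicle or 50 uM NS102, a glutamate receptor antagonist. The gate of the sort is not given in the sources used here, so it is not known if cells were stained for the IgE receptor or Kit. Skin samples carry the label Epidermal while the design text names the whole ear.

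On genome build mm9 the receptor chains lie at chr1:175151401-175157360 (Fcer1a), chr19:11690010-11698209 (Ms4a2) and chr1:173159702-173164480 (Fcer1g). The IgG receptors are neighbours of Fcer1g, at chr1:172890688-172906202 (Fcgr2b) and chr1:172981299-172989534 (Fcgr3). The kinases lie at chr4:3605267-3718759 (Lyn), chr13:52678805-52744161 (Syk) and chrX:131076879-131117679 (Btk). The adaptors lie at chr7:133507341-133513048 (Lat) and chr11:33947200-33992280 (Lcp2).

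The sequences before the start sites of the 3 receptor chains are shown because these chains of 1 receptor differed in their levels and changes below. The 250 bases upstream of the annotated start are printed from RefSeq on build GRCm38.p6, which is not the build of the expression table, each on the strand of its gene and 5′ to 3′. Capitals mark GATAA or its reverse complement TTATC, the core letters that GATA factors such as Gata2, a regulator of mast cells and basophils, are known to bind. The windows are chr1:173227230-173227479 on the minus strand for Fcer1a, chr19:11623720-11623969 on the minus strand for Ms4a2 and chr1:171234350-171234599 on the minus strand for Fcer1g.
Fcer1a: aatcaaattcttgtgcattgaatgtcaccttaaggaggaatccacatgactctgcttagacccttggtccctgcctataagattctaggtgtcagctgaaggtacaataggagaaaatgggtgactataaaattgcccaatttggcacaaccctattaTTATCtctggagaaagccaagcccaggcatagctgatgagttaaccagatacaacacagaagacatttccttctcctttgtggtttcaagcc
Ms4a2: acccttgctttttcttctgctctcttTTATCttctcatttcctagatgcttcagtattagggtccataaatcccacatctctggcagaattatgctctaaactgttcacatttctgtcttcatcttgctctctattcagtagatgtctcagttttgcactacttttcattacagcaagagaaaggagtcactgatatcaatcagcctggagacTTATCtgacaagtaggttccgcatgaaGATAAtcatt
Fcer1g: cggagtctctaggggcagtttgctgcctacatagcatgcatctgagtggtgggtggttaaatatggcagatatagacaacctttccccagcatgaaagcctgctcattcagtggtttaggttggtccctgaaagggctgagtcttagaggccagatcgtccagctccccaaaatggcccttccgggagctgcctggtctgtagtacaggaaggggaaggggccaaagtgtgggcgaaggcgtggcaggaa
The Ms4a2 window held 3 matches, the Fcer1a window 1 and the Fcer1g window 0. Among 32817 promoter windows of the same length, 22.6% held at least 1 match on either strand and 0.713% held at least 3. Of the 9 members with a promoter entry, 4 held a match: Lcp2 had 2, and Syk had 1 in the second of its windows. A match is a string of letters and was not tested as a site.

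Summed FPKM per library ranged from 117574 to 508485, correlations between libraries of a group ranged from 0.939 to 0.999, and 0 pairs of libraries were identical. Read counts were not used here; without them the depth of a library cannot be given, nor a counting error. Nothing in the labels says that replicates came from separate animals or cultures, so p-values measure the spread between these samples, which may be technical. Sorted and cultured cells expressed the mast cell receptor Kit at group means of 47.6 to 416 FPKM, against 1.58 to 3.44 FPKM in skin. Basophil markers were higher in 1 of the sorted groups, as given at that comparison. Ear skin of both genotypes expressed Xist (24.5 to 37.1 FPKM) without Ddx3y, whereas the sorted cells of both genotypes expressed Ddx3y (4.42 to 8.38 FPKM) with at most 0.0281 FPKM of Xist. β-alanine and PBS skin expressed Ddx3y at 11.8 to 19.2 FPKM. All culture groups expressed Xist (1.49 to 3.30 FPKM) without Ddx3y. Comparisons of sorted cells with skin of these genotypes or with cultures therefore also cross the sexes. So do those between the 2 skin experiments, and of cultures with β-alanine or PBS skin. The part of sex in them cannot be told apart.

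Fcer1a spanned the widest range of levels, from 0 in 2 β-alanine skin libraries to 8482 FPKM in a culture kept 48 h with vehicle. Its group means were 0.0582 ± 0.104 FPKM in β-alanine skin, 0.345 ± 0.0539 in MrgprdCre skin, 1.11 ± 0.454 in PBS skin and 1.13 ± 0.407 in MrgprdDTR skin (SD, n = 4 here and below). Sorted cells followed with 289 ± 94.5 FPKM in MrgprdDTR and 573 ± 98.3 FPKM in MrgprdCre libraries. Cultures held the most, 3023 ± 105 FPKM after 6 h with vehicle, 4064 ± 63.5 with glutamate, 5939 ± 435 after 48 h with NS102 and 8266 ± 238 after 48 h with vehicle. Of the neighbours in this order only PBS and MrgprdDTR skin overlapped. In the 48 h vehicle cultures this 1 gene made up 2.04% of all FPKM, against 0.306% in sorted MrgprdCre cells.

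The beta chain Ms4a2 did not follow that order. It was lowest in β-alanine skin (0.0205 ± 0.0237 FPKM), followed by MrgprdCre (1.23 ± 0.42), PBS (2.83 ± 0.47) and MrgprdDTR skin (3.43 ± 0.257). Cultures at 6 h held 85.2 ± 3.34 FPKM with glutamate and 165 ± 7.43 FPKM with vehicle. NS102 cultures (214 ± 9.23), sorted MrgprdCre cells (228 ± 37.9), 48 h vehicle cultures (287 ± 15) and sorted MrgprdDTR cells (346 ± 63.8) came last, and each of these overlapped its neighbour. Sorted MrgprdDTR cells thus had the highest mean for the beta chain and the lower of the sorted means for the alpha chain.

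The gamma chain Fcer1g was present in skin at 35 ± 5.42 FPKM even in MrgprdCre libraries and reached 2467 ± 82.1 FPKM in cultures with glutamate. In skin it stood far above both other chains, and macrophages, which use the gamma chain with other Fc receptors, were present there: their listed markers summed to 275 to 364 FPKM in MrgprdCre skin, and their part in the Fcer1g level was not tested. The inhibitory receptor Fcgr2b had the narrowest spread among the Fc receptors, from 7.69 ± 0.494 FPKM in cultures with glutamate to 84.1 ± 18.8 FPKM in sorted MrgprdDTR cells, and its skin levels of 15.4 to 21 FPKM lay between those. The activating Fcgr3 ran from 15 ± 1.93 FPKM in MrgprdCre skin to 209 ± 53.4 FPKM in sorted MrgprdDTR cells.

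Among the kinases, Lyn was highest in 6 h vehicle cultures (29 ± 2.62 FPKM), Syk in sorted MrgprdCre cells (6.89 ± 0.83 FPKM) and Btk in NS102 cultures (34.7 ± 4.38 FPKM). Syk was the least abundant of them in every sorted and cultured group, and its lowest level in any group, 1.19 ± 0.151 FPKM, was in cultures with glutamate. The adaptor Lat peaked in 6 h vehicle cultures (222 ± 12.3 FPKM) and Lcp2 in NS102 cultures (67.6 ± 6.48 FPKM). Both adaptors were lowest in MrgprdCre skin, at 2.3 ± 0.407 and 1.15 ± 0.0643 FPKM.

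**Figure D1:**
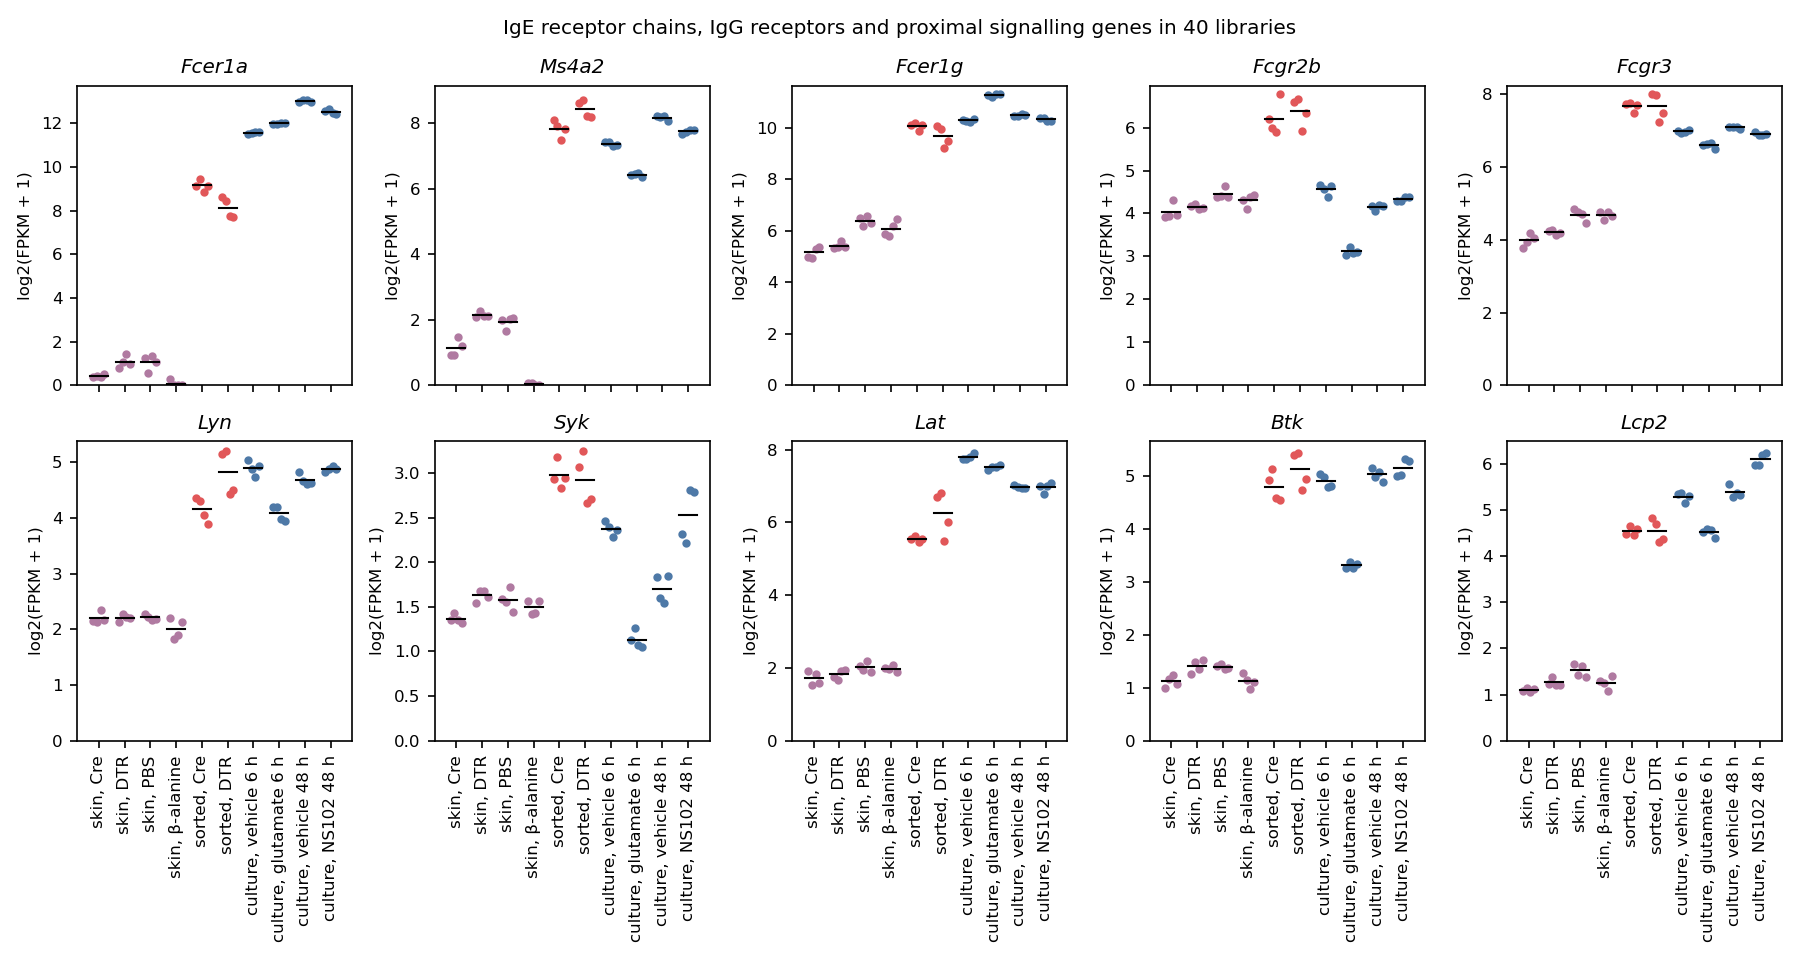
FPKM of each of the 10 genes (panels, vertical axis log2(FPKM + 1)) in the 10 groups, with 1 point per library and a line at the mean. Fcer1a ranges from 0 to 0.214 FPKM in β-alanine skin to between 7997 and 8482 FPKM in the 48 h vehicle cultures, while Fcgr2b has the narrowest spread among the Fc receptors and is lowest with glutamate.

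The proportion of alpha to beta chain RNA, taken within each library, set the 3 kinds of sample apart. The ratio of Fcer1a to Ms4a2 FPKM had a mean of 0.30 in MrgprdCre skin, 0.331 in MrgprdDTR skin and 0.381 in PBS skin. It was 2.53 (2.08 to 2.96) in sorted MrgprdCre cells and 0.821 (0.712 to 1.02) in sorted MrgprdDTR cells. In cultures it was 18.4 at 6 h with vehicle, 47.8 with glutamate, 28.8 at 48 h with vehicle and 27.8 with NS102. It was thus at most 0.506 in libraries of these skin groups, 0.712 to 2.96 in sorted cells and at least 17.1 in every culture. Against their own controls, it was 2.60-fold higher with glutamate and 0.323-fold in sorted MrgprdDTR cells, without overlap. Each of these had an exact permutation p of 0.0286 (two-sided), the smallest possible, and 0.0643 after adjustment over 9 ratio tests that were chosen after the values were seen. For skin ablation (p = 0.714) and NS102 (p = 0.457) the same exact test missed the threshold. The ratio of the activating to the inhibitory IgG receptor (Fcgr3 to Fcgr2b) was 0.974 to 1.31 in the skin groups, 2.84 and 2.47 in sorted MrgprdCre and MrgprdDTR cells, and 5.51 to 12.6 in cultures, highest with glutamate. It was 2.29-fold higher with glutamate than with vehicle and 0.764-fold with NS102 (exact permutation p = 0.0286 each, adjusted 0.0643).

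**Figure D2:**
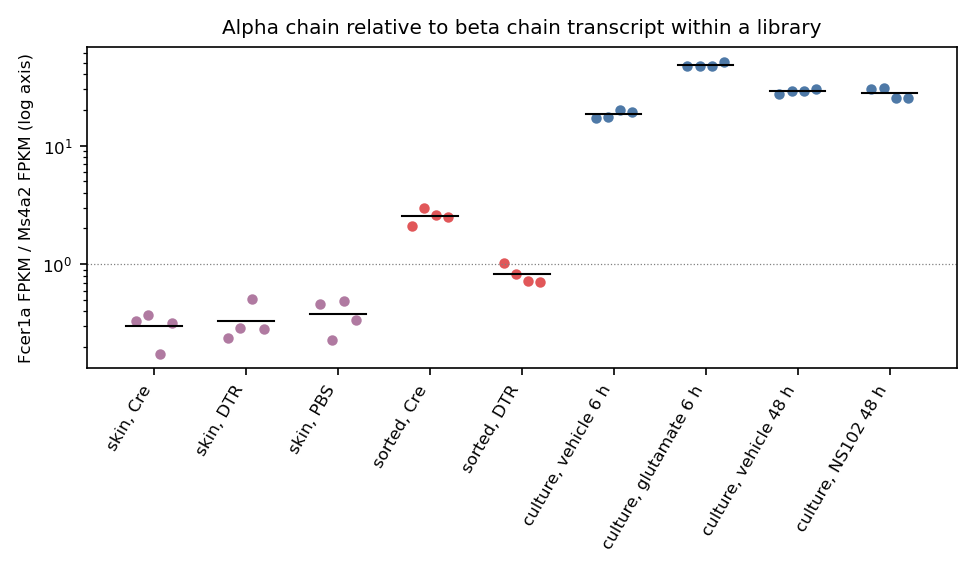
Ratio of Fcer1a to Ms4a2 FPKM within each library (log axis) in 9 groups, with 1 point per library, a line at the mean and a dotted line at 1; β-alanine skin, where both are near 0, is left out. The mean is 0.30 in MrgprdCre skin, 2.53 and 0.821 in the sorted groups and 47.8 with glutamate.

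Ear skin after ablation of MrgprD neurons addressed if loss of these neurons changes the receptor's RNA in the tissue. The beta chain Ms4a2 was 2.78-fold higher in MrgprdDTR skin, the kinase Syk 1.33-fold and the kinase Btk 1.4-fold, and 0 of the tested members were lower, also at an unadjusted p under 0.05. These 3 of 9 tested members passed limma's test (Benjamini-Hochberg adjusted p under 0.05 over 12607 genes), where 13.6% of all genes tested did, 7.38% as higher and 6.25% as lower. The median log2 change was 0.22 over the 9 tested members and 0.014 over all genes tested. Log2 changes here and below are on the log2(FPKM + 1) scale, which understates changes of low genes.

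Ms4a2 stood at 0.915, 0.911, 1.8 and 1.32 FPKM in the 4 MrgprdCre libraries and at 3.2, 3.8, 3.37 and 3.35 FPKM in the 4 MrgprdDTR libraries. The groups did not overlap, and the log2 change was 1.00 (SE 0.12, 95% interval 0.75 to 1.26, adjusted p = 0.0011). Fcer1a was 0.302, 0.337, 0.317 and 0.423 FPKM in MrgprdCre and 0.759, 1.11, 1.7 and 0.96 FPKM in MrgprdDTR libraries. Every MrgprdDTR library lay above every MrgprdCre library. Since 2 of the 8 libraries reached 1 FPKM, Fcer1a stood below the filter of limma. Its difference of 0.65 on the log2(FPKM + 1) scale had a two-sided exact permutation p of 0.0286, the smallest that 4 against 4 allows, in a test chosen after the values were seen, and limma without a filter gave an adjusted p of 0.0246. The gamma chain Fcer1g, at 35 and 41.7 FPKM, overlapped between the genotypes and missed the threshold (log2 change 0.25, adjusted p = 0.112).

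Syk rose from 1.55, 1.7, 1.54 and 1.49 FPKM to 1.92, 2.2, 2.2 and 2.06 FPKM (log2 change 0.27, SE 0.059, adjusted p = 0.0188). Btk, the Tec family kinase, was at 0.984, 1.25, 1.36 and 1.11 FPKM in MrgprdCre skin and at 1.38, 1.8, 1.55 and 1.89 FPKM in MrgprdDTR skin. Its groups nearly met, and its log2 change of 0.28 (SE 0.083) passed narrowly, with an adjusted p of 0.0469. Lcp2 did not overlap either, at 1.09 to 1.22 against 1.31 to 1.61 FPKM, and missed the threshold (log2 change 0.16, adjusted p = 0.115). Of the tested members, Ms4a2, Syk, Btk and Lcp2 were thus without overlap, where 21.4% of all genes were. Lyn (3.59 and 3.61 FPKM), Lat (2.3 and 2.54), Fcgr2b (15.4 and 16.9) and Fcgr3 (15 and 17.5) did not pass, with log2 changes of 0.0079, 0.10, 0.13 and 0.22.

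Of 33 tested genes of a wider list of the pathway, 8 rose and 0 fell (3 lower at an unadjusted p under 0.05), with a median log2 change of 0.11. The adaptor Lat2, a relative of Lat, rose from 3.98 to 5.84 FPKM (0.45), the kinase Prkcb from 2.16 to 3.02 FPKM (0.35), the phosphatase Inpp5d from 2.51 to 3.16 FPKM (0.25) and the Ras activator Rasgrp1 from 6.27 to 7.59 FPKM (0.24). Mast cell markers moved in the same samples: 10 of 11 tested markers rose, and their summed level was 82.6 to 107 FPKM in MrgprdCre and 219 to 263 FPKM in MrgprdDTR skin. Macrophage markers, of which 1 of 10 rose, summed to 275 to 364 and 346 to 363 FPKM. Set against the mast cell protease Cpa3 in the same library, Ms4a2 had a mean ratio of 0.101 in MrgprdCre and 0.0939 in MrgprdDTR skin, and Fcer1a had 0.0292 and 0.0308. Set against Kit the ratios did differ between the genotypes: Ms4a2 had 0.501 (0.415 to 0.620) in MrgprdCre and 1.00 (0.921 to 1.08) in MrgprdDTR skin, and Fcer1a had 0.145 (0.109 to 0.173) and 0.335 (0.242 to 0.545). Neither pair overlapped, and these ratios were not tested. In bulk samples, a change in the number of cells of a type and a change in RNA per cell cannot be told apart. The Btk call ended with median centring (adjusted p = 0.0649), without the filter (0.0726), with quantile normalization (0.0572) and without 6 of the 8 libraries in turn, all but MrgprdCre replicate 3 and MrgprdDTR replicate 1. The Syk call ended without MrgprdDTR replicate 2 (0.0524), while Fcgr2b (0.0199) and Fcgr3 (0.0320) passed without MrgprdCre replicate 3. Over 11873 genes, log2 change and transcript length had a Spearman correlation of 0.305, given as a description across genes, and with that trend removed Fcer1g (0.39, adjusted p = 0.0260) and Fcgr3 (0.29, 0.0440) passed; this alternative was chosen after seeing the data.

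In ear skin given β-alanine, both the alpha and the beta chain were close to 0. Ms4a2 was 2.95, 2.14, 3.08 and 3.16 FPKM with PBS and 0.0399, 0.0421, 0 and 0 FPKM with β-alanine. Its log2 change of −1.90 (SE 0.10, 95% interval −2.12 to −1.68) had an adjusted p of 5.86e-06 by limma. Ms4a2 passed the filter of 1 FPKM through the PBS libraries alone. It was the 1 member of 9 tested that passed, where 0.212% of 12709 genes did, 0.197% as lower and 0.0157% as higher. Fcer1a was 1.37, 0.489, 1.51 and 1.07 FPKM with PBS and 0.214, 0.0192, 0 and 0 FPKM with β-alanine, again without overlap. It stood below the filter, with 3 of 8 libraries at 1 FPKM. The exact permutation test, chosen after the values were seen, gave a difference of −0.97 and p = 0.0286, the smallest possible. Limma without a filter gave an adjusted p of 0.0956.

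The gamma chain did not follow the other 2 chains. Fcer1g was 90.4, 72.6, 94.2 and 78.2 FPKM with PBS and 57, 54.5, 71 and 87.1 FPKM with β-alanine, and the groups overlapped (log2 change −0.33, adjusted p = 0.509). Fcgr2b (21 and 18.9 FPKM) and Fcgr3 (25 and 24.7 FPKM) had log2 changes of −0.15 and −0.011. Btk did not overlap, at 1.55 to 1.74 against 0.974 to 1.42 FPKM, and its log2 change of −0.27 had an adjusted p of 0.347. Lyn (−0.20), Syk (−0.079), Lat (−0.033) and Lcp2 (−0.27) also missed the threshold, and the median over the tested members was −0.20, against −0.044 over all genes tested.

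In the wider pathway list 0 of 33 tested genes passed limma's test in this comparison, and at an unadjusted p under 0.05 there were 5 lower and 2 higher. Of the mast cell markers 6 of 11 fell, among them Cpa3 (33.6 to 0.370 FPKM), Cma1 (78.7 to 1.12 FPKM), Mcpt4 (83.2 to 1.17 FPKM) and the transcription factor Gata2 (2.85 to 1.04 FPKM). Their summed level was 237 to 297 FPKM with PBS and 24.2 to 27.1 FPKM with β-alanine. The stem cell factor receptor Kit, at 2.34 and 1.58 FPKM, did not pass. With any 1 PBS library left out, fewer than 4 libraries reach 1 FPKM of Ms4a2, so by construction of the filter it was not tested there.

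The effects in the 2 skin experiments shared no library, and their difference was tested with an interaction term over 16 libraries. It passed for 5 members, all towards lower with β-alanine: Ms4a2 (−2.90), Fcer1a (−1.62, adjusted p = 0.0004), Btk (−0.55, 0.0103), Lcp2 (−0.43, 0.0388) and Syk (−0.35, 0.0409). Fcer1a was below the filter in each skin comparison alone and passed it here through PBS and MrgprdDTR libraries only. Its level was at most 0.214 FPKM with β-alanine and 0.423 FPKM in MrgprdCre skin. Over all genes 6.66% passed, 5.39% as lower and 1.28% as higher. The experiments also differ in strain and sex, which cannot be told apart from the treatments. Ms4a2, Fcer1a and Btk kept their calls without any 1 library, whereas Syk lost it in 12 and Lcp2 in 10 of 16 such fits.

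**Figure D3:**
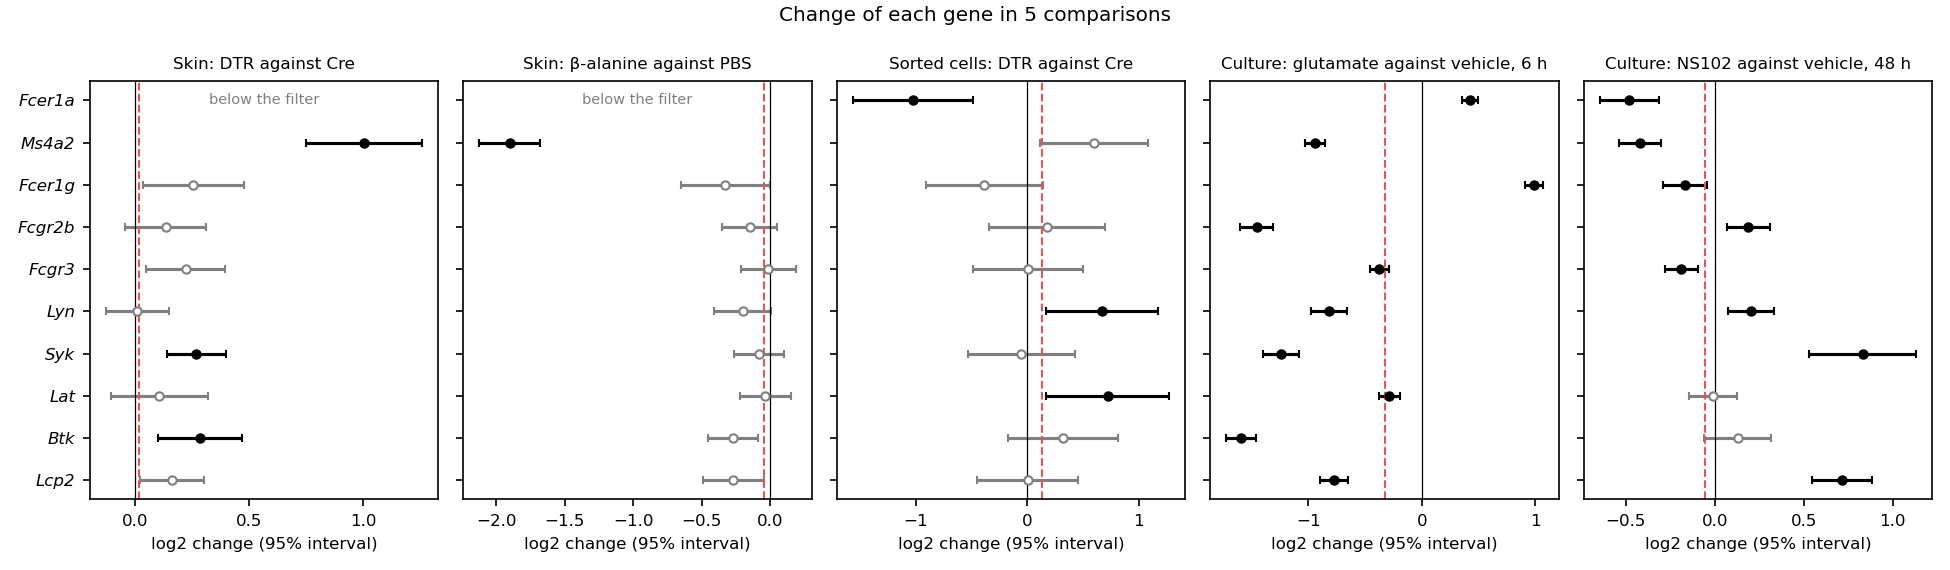
Log2 change on the log2(FPKM + 1) scale, with 95% intervals, of the 10 genes in 5 comparisons; filled points passed limma's test, the dashed line is the median of all genes tested, and genes below the filter are marked. Glutamate has Fcer1a and Fcer1g to the right of 0 and the other members to the left, Fcgr3 and Lat only without median centring.

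Sorted mast cells after ablation showed the alpha and beta chains on opposite sides. Fcer1a was 563, 706, 468 and 557 FPKM in the MrgprdCre libraries and 396, 342, 215 and 205 FPKM in the MrgprdDTR libraries. The groups did not overlap and the level was 1.98-fold higher in MrgprdCre cells (log2 change −1.03, SE 0.26, 95% interval −1.57 to −0.49, limma adjusted p = 0.0041). Ms4a2 was 271, 239, 180 and 223 FPKM in MrgprdCre and 387, 414, 296 and 288 FPKM in MrgprdDTR cells. It did not overlap either, in the opposite direction, and its log2 change of 0.60 (SE 0.23) just missed the threshold (adjusted p = 0.0516). It passed with a pseudocount of 0.1 (0.04996), a filter of 5 FPKM (0.0492), median centring (0.0012) and quantile normalization, which gave a log2 change of 1.33 (adjusted p = 1.98e-06). Fcer1g was 940 to 1177 against 592 to 1069 FPKM, with overlap (−0.39, adjusted p = 0.246).

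Lyn, the kinase that starts the cascade, was 19.5, 18.9, 15.6 and 13.9 FPKM in MrgprdCre and 34.6, 36, 20.5 and 21.6 FPKM in MrgprdDTR cells. Its groups did not overlap, and it passed with a log2 change of 0.67 (SE 0.24, adjusted p = 0.0366). Lat was 45.8, 48.3, 42.7 and 45.3 FPKM against 103, 111, 44.2 and 63.9 FPKM, so that 1 MrgprdDTR library lay within the MrgprdCre range. It passed with a log2 change of 0.72 (SE 0.27, adjusted p = 0.0396). In all, 2 of 10 members were higher and 1 lower, where 35.8% of 8871 genes passed, 18.9% as higher and 16.9% as lower. Btk (0.32), Fcgr2b (0.17), Fcgr3 (0.0064), Lcp2 (0.0015) and Syk (−0.054) did not pass. The members' median was 0.090, against 0.13 over all genes tested.

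The 4 MrgprdDTR libraries of sorted cells split alike for all 10 members, with replicates 1 and 2 above replicates 3 and 4. Their summed FPKM split the same way, at 191722 and 185388 against 117574 and 126017, while the MrgprdCre libraries had 161968 to 197003. The Lyn and Lat calls depended on single libraries. Each ended without MrgprdDTR replicate 1 or 2 and without 3 of the MrgprdCre libraries (Lyn: 2, 3 and 4; Lat: 1, 2 and 3), with adjusted p-values of up to 0.123 for Lyn and 0.147 for Lat. Without a filter Lyn had 0.0944, Lat 0.154 and Fcer1a 0.053, and quantile normalization brought Fcer1a to −0.15 (0.243). With any 1 library left out Fcer1a kept its call, at −0.88 to −1.20 and an adjusted p of at most 0.0191.

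Markers of another cell type moved with Fcer1a in the sorted cells, and basophils carry the same IgE receptor. Of 10 tested basophil markers 8 were lower in MrgprdDTR cells, and Il3ra and Itga2 did not pass. The basophil protease Mcpt8 stood at 343 FPKM in MrgprdCre and 2.11 FPKM in MrgprdDTR cells, Prss34 at 42.7 and 0.786, the receptor Ccr3 at 10.04 and 0.0364 and Cd200r3 at 251 and 144. The list summed to 2070 to 3635 FPKM in MrgprdCre and 157 to 256 FPKM in MrgprdDTR libraries. Mast cell markers went the other way: 7 rose, Gata2 fell (228 to 96.4 FPKM), and the sum was 9932 to 14797 against 18441 to 30178 FPKM. Kit rose from 47.6 to 196 FPKM and Cpa3 from 1891 to 4352 FPKM. The ratio of Fcer1a to Kit was 12.2 in MrgprdCre and 1.46 in MrgprdDTR cells, and that of Ms4a2 to Kit was 4.88 and 1.79. The ratio of Fcer1a to Cpa3 was 0.305 and 0.0652, and that of Ms4a2 to Cpa3 was 0.123 and 0.0799. All of these means were thus lower in MrgprdDTR cells. Marker sums of some other blood cells were lower there too. Neutrophil markers summed to 51.6 to 252.5 FPKM in MrgprdCre and 0.0804 to 0.264 FPKM in MrgprdDTR libraries. Macrophage and monocyte markers summed to 43.4 to 53.5 and 6.94 to 17.3 FPKM. T and NK cell markers summed to 14.9 to 70.3 and 6.54 to 16.9 FPKM, with overlap. Few of these genes were tested: 1 neutrophil and 1 T and NK cell gene, both lower, and 4 macrophage and monocyte genes, of which 2 were lower. These cells are known to express several of the 10 genes, Fcer1g, Fcgr2b, Fcgr3, Syk and Lcp2 among them. Platelet markers went the other way, with sums of 45.7 to 67.9 FPKM in MrgprdCre and 60.2 to 102 FPKM in MrgprdDTR libraries, with overlap. Most of these sums was Itga2b, with means of 51.2 and 63.4 FPKM. Itga2b was also at 229 FPKM in 48 h vehicle cultures, so it does not mark platelets alone. The part of basophils and of these other cells in the members' results was not tested. The listed basophil genes are not all absent from mast cells: cultures at 6 h with vehicle held 492.7 FPKM of Prss34, with 5.46 FPKM of Mcpt8 and 0.730 FPKM of Cd7. Ifitm1 was at 1516 FPKM in these cultures, against 1739 FPKM in sorted MrgprdCre and 0.624 FPKM in sorted MrgprdDTR cells. The basophil list summed to 2350 to 2458 FPKM there and to 3240 to 4107 FPKM in NS102 cultures. Ifitm1 was the largest part of these sums, so sums of like size do not mean like content. Mcpt8 and Cd7 were at 343 and 306 FPKM in sorted MrgprdCre cells. Their culture means were at most 8.03 and 0.730 FPKM. Prss34 went the other way, at 42.7 FPKM in sorted MrgprdCre cells and up to 778 FPKM in cultures. Red blood cell genes summed to 664 FPKM in MrgprdCre replicate 2 and to at most 1.98 FPKM in the other sorted libraries. Without that library Fcer1a was at −0.92 (adjusted p = 0.0182).

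Within the wider list 3 of 28 tested genes rose in MrgprdDTR sorted cells and 11 fell. The calcium sensor Stim1 rose from 6.71 to 21.4 FPKM, the phosphatase Inpp5d from 15.6 to 38.96 FPKM and the Ras activator Rasgrp4 from 1.47 to 3.55 FPKM. The calcium channel Orai1 fell from 15.95 to 1.88, the kinase Tec from 42.9 to 7.86 and the kinase Akt1 from 13.4 to 3.75. The partners of store-operated calcium entry, Stim1 and Orai1, were thus on opposite sides. The list's median was −0.093.

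The ablation effect differed between sorted cells and skin for 2 members. The difference, sorted minus skin, was −1.68 for Fcer1a (SE 0.28, limma adjusted p = 0.00035), which was lower in MrgprdDTR sorted cells and higher in MrgprdDTR skin. Fcer1a reached 1 FPKM in 2 of the 8 skin libraries, so it passed the filter here through the sorted libraries. The difference was 0.66 for Lyn (SE 0.24, adjusted p = 0.0491), where 27.7% of all genes passed, 14.4% as positive and 13.3% as negative. Sex also differs between sorted cells and skin, and its part cannot be told apart. The Lyn difference ended without any 1 of 12 of the 16 libraries. The differences for Ms4a2 (−0.41, adjusted p = 0.202), Fcer1g (−0.64, 0.0601) and Lat (0.62, 0.152) missed the threshold.

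Glutamate for 6 h was followed by higher alpha and gamma chains and by lower levels of every other member, of which Fcgr3 and Lat were no longer lower once each library was centred on its median. Fcer1a was 2902, 2967, 3121 and 3100 FPKM with vehicle and 3984, 4041, 4113 and 4117 FPKM with glutamate (log2 change 0.43, SE 0.031, limma adjusted p = 4.21e-08). Fcer1g was 1263, 1229, 1179 and 1308 FPKM with vehicle and 2482, 2347, 2514 and 2526 FPKM with glutamate (0.99, SE 0.037, adjusted p = 1.14e-10). Replicates lay close together, and none of the 10 members overlapped, as was so for 74.3% of all genes. Ms4a2 fell from 170, 171, 156 and 162 FPKM to 84.7, 86.9, 88.4 and 80.8 FPKM (−0.94, adjusted p = 3.70e-10). All 10 members passed, 2 as higher and 8 as lower, in a comparison where 79.3% of 8297 genes passed, 16.9% as higher and 62.4% as lower.

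The inhibitory IgG receptor Fcgr2b fell from 22.9 to 7.69 FPKM (−1.46) and the activating Fcgr3 from 125 to 96.5 FPKM (−0.37). Btk fell from 31.7, 30.2, 26.5 and 27 FPKM to 8.57, 9.33, 8.62 and 9.03 FPKM (−1.59, adjusted p = 1.38e-10), and Syk from 4.18 to 1.19 FPKM (−1.25). Lyn went from 29 to 16 FPKM (−0.82), Lcp2 from 38.2 to 21.9 FPKM (−0.77) and Lat from 222 to 182 FPKM (−0.28). Btk, Fcgr2b and Syk thus had the largest falls and Lat the smallest. The median over all genes tested was itself −0.33, and the members' median was −0.79. Relative to that shift, by centring each library on its median, Fcgr3 (0.039, adjusted p = 0.370) and Lat (0.13, 0.0562) were no longer lower, and 58.6% of the calls over all genes were higher in place of 21.3%.

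In the wider list 22 of 28 tested genes fell with glutamate and 1 rose, with a median of −0.41. The kinase Pdpk1 rose from 6.75 to 8.39 FPKM (0.28). The phosphatase Inpp5d, partner of Fcgr2b, fell from 42.1 to 12.3 FPKM (−1.69), the kinase Prkcd from 69.8 to 26.6 FPKM (−1.36), Akt1 from 6.70 to 2.77 FPKM (−1.03) and the Src-inhibiting kinase Csk from 14.8 to 7.13 FPKM (−0.96). Of the mast cell markers 6 rose and 4 fell, Kit from 397 to 191 FPKM. Over 7818 genes with a length, log2 change and transcript length had a Spearman correlation of −0.098, given as a description across genes. The 2 chains that rose, Fcer1g (683 bases) and Fcer1a (998 bases), are the shortest members by longest GENCODE transcript. With the length trend removed, an alternative chosen after seeing the data, Fcer1a was at 0.25 and Fcer1g at 0.66, and both still passed.

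**Figure D4:**
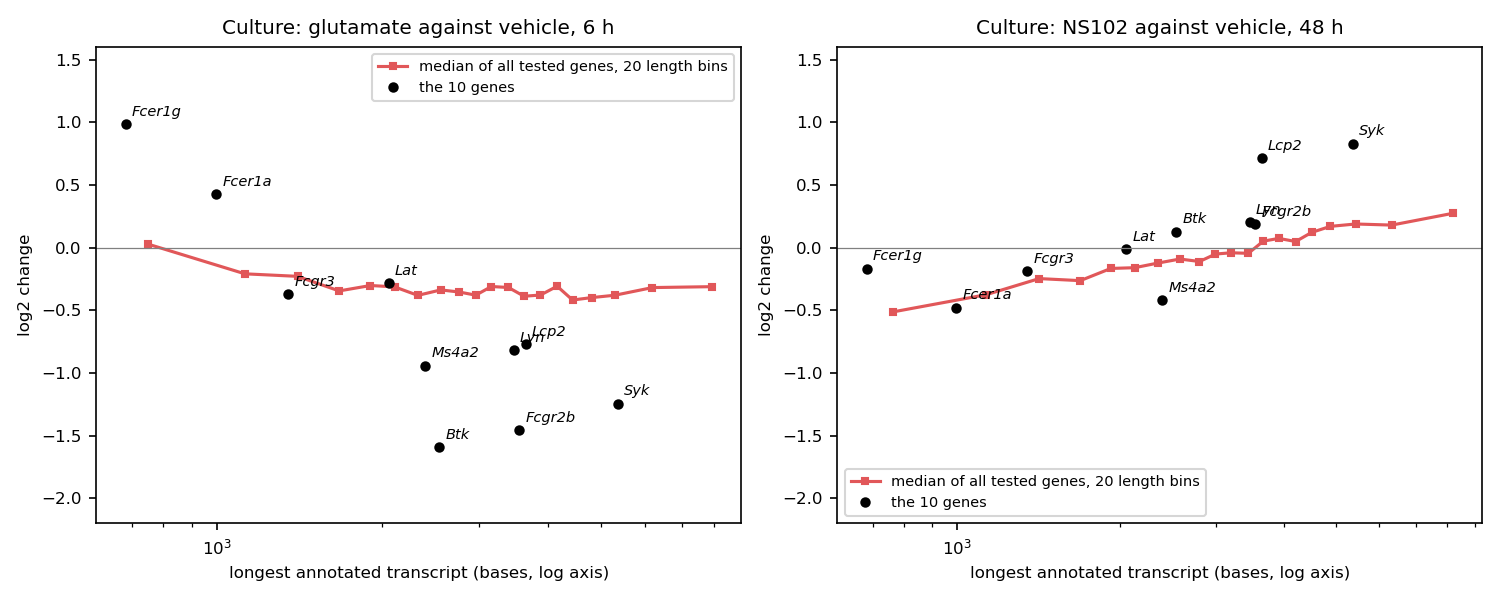
Median log2 change over bins of genes ordered by transcript length (line) and the 10 members at their own length (points), for glutamate at 6 h and NS102 at 48 h; both axes are labelled and the length axis is logarithmic. With glutamate the 2 shortest members, Fcer1g and Fcer1a, are above 0 and all longer members below (Fcgr3 and Lat only without median centring).

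With NS102 for 48 h the alpha and beta chains were lower, and the kinase Syk and the adaptor Lcp2 higher. Fcer1a was 8135, 8449, 8482 and 7997 FPKM with vehicle and 6128, 6465, 5596 and 5568 FPKM with NS102 (log2 change −0.48, SE 0.077, limma adjusted p = 0.0001). Ms4a2 was 297, 291, 296 and 265 FPKM with vehicle and 203, 210, 221 and 223 FPKM with NS102 (−0.42, SE 0.054). Neither overlapped, though the share of all genes without overlap was not counted for this comparison. The ratio of Fcer1a to Ms4a2 was 28.8 with vehicle and 27.8 with NS102. Syk went from 2.56, 2.02, 1.92 and 2.59 FPKM to 3.99, 3.63, 6.04 and 5.92 FPKM (0.83, SE 0.14, adjusted p = 0.0002). Lcp2 went from 46.3, 37.7, 40 and 39.4 FPKM to 62.2, 61.9, 72.4 and 74.1 FPKM (0.71, SE 0.078). NS102 replicates 3 and 4 lay above 1 and 2 for both, and for Btk.

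Fcgr2b (16.7 to 19.2 FPKM, 0.19) and Lyn (24.7 to 28.6 FPKM, 0.20) were higher by small amounts, and Fcer1g (1437 to 1279 FPKM, −0.17) and Fcgr3 (136 to 119 FPKM, −0.19) lower, both of which turned with quantile normalization (0.37 and 0.10). The Fcer1g call (adjusted p = 0.0177) also ended with median centring (0.0893), without vehicle replicate 3 (0.0603) and without NS102 replicate 4 (0.0559). In all, 4 members were higher and 4 lower, where 70.5% of 8373 genes passed, 30.8% as higher and 39.7% as lower. Lat (125 and 124 FPKM, −0.011) and Btk (31.5 and 34.7 FPKM, 0.13) did not pass, and the median was 0.059 over the members and −0.057 over all genes tested. Here the correlation of log2 change with transcript length was 0.38 over 7887 genes. With that trend removed Fcer1g turned to 0.32 (adjusted p = 6.50e-05), Fcgr3 to 0.058 (0.266) and Fcgr2b to 0.12 (0.0609), while quantile normalization left Ms4a2 at −0.019 (0.792). Fcer1a, Lyn, Syk and Lcp2 kept direction and call in all alternatives in which they were tested.

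Of the wider list 21 of 28 tested genes rose with NS102 and 1 fell, with a median of 0.39. The calcium release channel Itpr2 rose from 0.886 to 4.97 FPKM (1.59), the kinase Prkcb from 23.5 to 71.2 FPKM (1.54), the lipid kinase subunit Pik3cd from 20.95 to 57.6 FPKM (1.40) and the adaptor Gab2 from 2.55 to 8.33 FPKM (1.38). The adaptor Shc1 fell from 15 to 13.1 FPKM (−0.18, adjusted p = 0.0371). Among mast cell markers 9 rose and Mitf fell, with Kit at 257 FPKM in vehicle and 416 FPKM in NS102 cultures.

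The NS102 effect at 48 h and the glutamate effect at 6 h shared no library, and their difference passed for all 10 members, where 75.9% of 8896 genes passed, 52.5% as positive and 23.3% as negative, with a median of 0.29. It was negative for Fcer1a (−0.91) and Fcer1g (−1.16), which rose with glutamate and not with NS102. The positive differences were largest for Syk (2.08), Btk (1.72), Fcgr2b (1.65) and Lcp2 (1.48), followed by Lyn (1.02), Ms4a2 (0.52), Lat (0.27) and Fcgr3 (0.19). With median centring Fcgr3 (−0.26) and Lat (−0.18) changed sign and Ms4a2 was at 0.071 (adjusted p = 0.269). Time and buffer differ between the 2 experiments as well as the agent.

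The vehicle cultures at 48 h and 6 h were used above as controls, so their comparison shares libraries with both and is given on its own. Fcer1a was 2.73-fold higher at 48 h (log2 change 1.45), Ms4a2 1.75-fold (0.80), Fcer1g 1.15-fold (0.21, adjusted p = 0.0004) and Fcgr3 1.08-fold (0.12, 0.0142), the last of which turned with quantile normalization (−0.097). Lat fell by 0.82 on the log2 scale, from 215, 212, 222 and 239 FPKM to 130, 125, 122 and 123 FPKM. Syk (−0.67), Fcgr2b (−0.42) and Lyn (−0.22) were lower too, of which Lyn did not pass with median centring (−0.14, adjusted p = 0.0582). The count of 4 higher and 4 lower members stood where 71.9% of 8467 genes passed, 34.2% as higher and 37.7% as lower. Btk (28.9 and 31.5 FPKM) and Lcp2 (38.2 and 40.8 FPKM) did not pass, although with median centring both did (adjusted p = 0.0056 and 0.0121), and Btk also passed without vehicle replicate 1 of 6 h (0.0439) or 4 of 48 h (0.0481). The Fcgr3 call ended in limma without trend (0.0546). Of the wider list 2 of 28 rose (Orai1 0.51, Grb2 0.18) and 18 fell, led by Prkcd (−1.60), Prkcb (−1.28), Plcg1 (−1.24) and the kinase Fyn (−1.22). With the length trend removed Fcer1g (−0.012) and Fcgr3 (−0.042) lost both call and direction, and the time and the buffer of these cultures cannot be told apart.

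Sorted MrgprdCre cells against MrgprdCre skin, which share libraries with the ablation comparisons, show how far each gene is enriched in the sorted cells. All 10 members were higher in sorted cells, where 89.8% of 12693 genes passed, 9.85% as higher and 80% as lower and the median log2 change was −1.42. The log2 change was 8.72 for Fcer1a, 6.68 for Ms4a2 and 4.91 for Fcer1g. The adaptors Lat (3.82) and Lcp2 (3.45), the kinase Btk (3.67) and Fcgr3 (3.68) formed a middle group, and Fcgr2b (2.18), Lyn (1.96) and Syk (1.61) were lowest. All 10 kept direction and call in every alternative in which they were tested, although median centring moved the share of higher calls over all genes from 11 to 55.3%. Fcer1a reached at most 0.423 FPKM in MrgprdCre skin, so it passed the filter through the sorted libraries alone. By construction of the filter it was not tested with any 1 sorted library left out. Of the wider list 13 of 33 were higher, led by Lat2 (3.98 to 276 FPKM), and 15 lower, among them the phosphatase Ptpn11 (26.8 to 1.51 FPKM) and Rasgrp1 (6.27 to 0.0186 FPKM). The neonatal Fc receptor Fcgrt went from 34.3 to 2.31 FPKM.

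Among 9991 genes that reached 5 FPKM in 4 or more libraries, those whose log2(FPKM + 1) was most like that of Fcer1a over the 40 libraries were Itga2b (Pearson r = 0.996), Cd53 (0.993), Cd37 (0.993), Itgb7 (0.992) and Srgn (0.991). For Ms4a2 they were Fam105a (0.987), Rgs18 (0.986), Serpinb1a (0.985), Kcne3 (0.982) and Cyp11a1 (0.980). The 5 genes nearest to each chain were different genes. These values describe 40 points that fall into skin, sorted and cultured libraries, which share source and processing, and they mostly measure that division.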

How the data were processed

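RNA of 40 libraries was sequenced on an Illumina HiSeq-2500, per the labels, which do not assign single and paired ends. The values are FPKM that the authors deposited in 1 table, made with STAR and Cufflinks on mm9 per the submitters' processing notes; versions, annotation and filters are not given in the sources used here. Depth is unknown.

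Genes that reached 1 FPKM in 4 or more of the libraries in a fit were tested as log2(FPKM + 1) with limma 3.58.1 (R 4.3.3, mean-variance trend, two-sided), adjusted by Benjamini-Hochberg over all genes tested, in 7 comparisons of 4 against 4 libraries and 3 interaction contrasts over 16. The threshold was an adjusted p of 0.05. The share of all genes without overlap was counted for skin ablation and glutamate alone. Lack of overlap in the other comparisons is given without it. Exact permutation tests, ratios, correlations and figures used Python 3.11.15 with numpy 2.4.6, pandas 2.3.3, scipy 1.17.1 and matplotlib 3.10.9. The fit was tested on simulated data.

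The members and lists were chosen with earlier results of these data known. All 10 members are named whatever their p, from the wider list and other Fc receptors up to 4 genes per direction with the largest log2 change among those that passed (1 gene so named is not reported here), and 5 genes most like Fcer1a and Ms4a2. Alternatives were other pseudocounts and filters, median centring, quantile normalization, a replicate block, a shared spread, limma without trend and each library left out. Length correction, the exact tests of Fcer1a and the ratio tests were added after seeing the data. Promoter sequences are RefSeq's, and transcript lengths are those of the longest GENCODE transcript of a symbol.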

Additional observations from a re-analysis of the deposited data

Results flagged for a closer look

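In 5 of the 100 groups of 4 libraries searched (10 genes in 10 groups), 1 library lay far from the other 3 by Dixon's criterion, which chance meets in about 1 of 20 groups. Fcer1a was 0.214 FPKM in β-alanine skin replicate 1, the highest of its group. Fcgr2b was 18.7 FPKM in MrgprdCre skin replicate 3 and 23.97 FPKM in PBS skin replicate 3, each the highest of its group. Fcgr3 was 132 FPKM in 48 h vehicle culture replicate 4, the lowest of its group, and Lcp2 was 1.61 FPKM in MrgprdDTR skin replicate 2, the highest.

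The ablation effect differed between sorted cells and skin by limma's interaction term for Fcer1a, by −1.68 on the log2(FPKM + 1) scale (adjusted p = 0.00035), and for Lyn, by 0.66 (adjusted p = 0.0491). Fcer1a was below the filter in skin and passed it here through the sorted libraries. Sorted cells and skin also differ in sex.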

How the results depend on the processing

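Over the settings other than leaving out a library, member log2 changes kept their side of the threshold in 883 fits, gained a call in 23, lost one in 26 and changed sign with a call on either side in 15; with a library left out the figures were 953, 10, 53 and 0. Of the 883 and 953, 15 and 31 changed sign without passing the test in either setting, to at most 0.172 and 0.108 in size. The cause of these shifts was not tested. Filters change which genes are tested.

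The values that changed sign with a call were, with quantile normalization, sorted Fcer1g 0.30, NS102 Fcer1g 0.37, Fcgr3 0.10 and Lat 0.30, 48 h against 6 h Fcgr3 −0.097, and the ablation difference of Ms4a2 0.76 and Fcgr3 0.69. With median centring they were glutamate Fcgr3 0.039 and Lat 0.13, and the NS102 and glutamate difference of Fcgr3 −0.26 and Lat −0.18. With length correction they were NS102 Fcer1g 0.32 and Fcgr3 0.058, and 48 h against 6 h Fcer1g −0.012 and Fcgr3 −0.042.

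Counts of members moved as follows. In skin ablation 3 were higher, 0 with a filter of 5 FPKM and 5 with length correction; in β-alanine skin 1 was lower and 0 with that filter. In sorted cells 2 were higher and 1 lower: 0 and 0 without a filter, 7 higher and 0 lower with quantile normalization, 1 higher with length correction and 2 lower with median centring. With NS102, quantile normalization gave 8 higher and 1 lower, and length correction 2 lower; at 48 h against 6 h, length correction gave 2 higher. For the ablation difference (1 higher, 1 lower) there were 0 higher with a pseudocount of 0.1, without a filter and with length correction, 2 with median centring and 6 with quantile normalization, and 2 lower with a pseudocount of 0.1, median centring and a shared spread. The NS102 and glutamate difference had 5 higher with median centring, in place of 8. The difference of β-alanine and ablation had 5 lower, and 0 with a filter of 5 FPKM or 3 with median centring or quantile normalization.

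Genes past the test numbered 729 in skin ablation (1719 as reported) and 130 for β-alanine (27) with a shared spread. A filter of 5 FPKM gave 1897 for sorted cells (3173), 3962 for glutamate (6580), 3757 for NS102 (5902), 3888 for 48 h against 6 h (6087) and 4188 for the NS102 and glutamate difference (6750). The share of higher calls moved with median centring from 54.2 to 41.3% in skin ablation, from 69.2 to 39.9% for the NS102 and glutamate difference and from 19.2 to 50.6% for the β-alanine and ablation difference. A shared spread gives no other fit for the sorted cells.

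With 1 library left out, genes past the test ranged from 773 to 1512 in skin ablation, 11 to 38 for β-alanine and 375 to 1492 for the β-alanine and ablation difference. Members higher ranged from 1 to 5 in skin ablation (5 without MrgprdCre replicate 3, 1 without MrgprdDTR replicate 2), 0 to 3 in sorted cells and 0 to 2 in the ablation difference. Members lower ranged from 0 to 1 for β-alanine, 1 to 2 for the ablation difference and 3 to 6 for the β-alanine and ablation difference.

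Same-numbered libraries deviated together with correlations of −0.247 to 0.463, and in 0 of the comparisons did all 4 pairs pass 0.1. For vehicle at 48 h and 6 h, 3 of 4 pairs passed 0.1. In skin ablation 5 of 8 libraries were most like the library of their own number. With 4 pairs per comparison this check cannot tell if same-numbered libraries belong together. With the replicate block the ablation difference had 2 members lower, the β-alanine and ablation difference 3, with 523 genes past the test (866 as reported), Ms4a2 passed in sorted cells (adjusted p = 0.0236) and Btk in skin (0.0535) and Fcer1g with NS102 (0.0619) did not.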
